A study of Mus musculus with 4 samples.

Results

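Genes of sterol synthesis, uptake and efflux were examined in mouse liver after ethylbenzene, an aromatic solvent, given once or repeatedly. Earlier results of these data were known when the set was chosen. It held 31 genes, chosen by name for their role in making, sensing, storing or exporting cholesterol. Of these, 28 had a probe set annotated to them alone, and all 28 passed the filter on low signals that 11513 of 18193 genes on the array passed. Acat2, Soat2 and Nr1h2 had no such probe set and were not analysed here. The 28 genes comprised 4 regulators, 17 synthesis enzymes, 1 enzyme of an isoprenoid side branch, 1 sterol carrier and 5 genes of efflux and of the liver X receptor (LXR).

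The 4 groups were named by a first and a second treatment, with E for ethylbenzene and P for phosphate-buffered saline (PBS). E+E mice received ethylbenzene both times, P+E mice PBS first and ethylbenzene second, E+P mice ethylbenzene first and PBS second, and P+P mice PBS both times. All were C57BL/6J mice aged 2 months. Mice were injected intraperitoneally 2 times, 24 h apart, as the first treatment and again 7 days later as the second. Livers were taken 5 h after that, and every ethylbenzene dose was 7 mmol per kg. Liver RNA of 5 mice each (E+E and P+E) or 3 mice each (E+P and P+P) was pooled and measured on 1 Affymetrix array per group. There were thus no replicates, no difference could be set against the spread between animals, and pool size cannot be told apart from the second treatment.

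Cholesterol is built from acetyl-CoA through mevalonate, farnesyl diphosphate, squalene and lanosterol. The transcription factor SREBP-2, product of Srebf2, drives the genes of this route when sterols are scarce: the escort protein Scap carries it from the endoplasmic reticulum to the Golgi for cleavage, and the Insig proteins hold Scap back when sterols are plentiful. Surplus sterol is the signal for LXR, which drives export genes. In liver, Insig1 is itself a target of SREBP, while Insig2 is known to be repressed by insulin and to be higher in fasting.

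Values are deposited probe set signals (linear intensities), with 1 probe set per gene, the one of highest mean signal. Log2 ratios were taken after quantile normalization over the 4 arrays on the log2(signal + 43.2) scale, which understates differences of low signals. A rule of size took the place of a test: genes were called at 2-fold or more, which is 1 in log2 units. No signal of the 28 probe sets lay below the filter level of 120.0 on any array. Signals of different probe sets are not comparable with each other.

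The arrays differed in some controls. The geometric mean signal of the 18S ribosomal RNA probe sets was between 122 and 182 on E+E, P+E and E+P and 1872 on P+P, and for the Actb controls it was between 22081 and 30540 on those 3 arrays and 8928 on P+P. The 3′/5′ signal ratio of control transcripts, which is higher in degraded RNA, was 6.15 on P+E against 23.5 on P+P, and 12.0 on E+E against 7.21 on E+P, for Pcx. It lay between 3.48 and 4.55 for Actb and between 0.91 and 1.06 for Gapdh. The part of these differences in the ratios below was not tested. All 8 hepatocyte markers were past the filter, and their summed deposited signal was 1033366 on P+E against 875557 on P+P and 1087947 on E+E against 911992 on E+P. After quantile normalization the difference was not seen. Their median log2 ratio was 0.01 in P+E against P+P and -0.08 in E+E against E+P. Whether a lower signal means fewer cells of a type or less RNA per cell cannot be told apart in whole liver.

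Promoter windows of RefSeq (GRCm38.p6), from 250 bases before to 50 after a transcript start, were found for 26 of the 31 genes. Those of Msmo1, Idi1, Insig1 and Mvk are shown because these regulators and enzymes had the lowest mean of both second-exposure ratios among those with a window. Hmgcs1 is shown because its window alone among the members' held the searched SREBP site, and Insig2 for the large opposite difference described next. The last 2 choices were made after the values were seen. Each sequence runs 5′ to 3′ along the gene, and capitals mark CCAAT or its complement ATTGG (the NF-Y box) and TCACNCCAC (an SREBP site).
The windows were chr8:64733529-64733828 on the minus strand for Msmo1, chr13:8885356-8885655 on the plus strand for Idi1, chr5:28071162-28071461 on the plus strand for Insig1 and chr5:114444019-114444318 on the plus strand for Mvk. That of Hmgcs1 was chr13:119690101-119690400 on the plus strand.
Insig2 had 3 annotated starts on the minus strand, with windows at chr1:121332540-121332839 (the farthest upstream), chr1:121327975-121328274 and chr1:121327629-121327928.
Msmo1: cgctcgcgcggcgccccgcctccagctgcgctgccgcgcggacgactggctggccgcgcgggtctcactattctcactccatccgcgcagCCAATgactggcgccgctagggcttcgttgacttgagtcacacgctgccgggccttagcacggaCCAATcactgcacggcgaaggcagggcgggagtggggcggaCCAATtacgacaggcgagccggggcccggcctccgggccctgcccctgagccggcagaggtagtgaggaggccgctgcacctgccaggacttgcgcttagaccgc
Idi1: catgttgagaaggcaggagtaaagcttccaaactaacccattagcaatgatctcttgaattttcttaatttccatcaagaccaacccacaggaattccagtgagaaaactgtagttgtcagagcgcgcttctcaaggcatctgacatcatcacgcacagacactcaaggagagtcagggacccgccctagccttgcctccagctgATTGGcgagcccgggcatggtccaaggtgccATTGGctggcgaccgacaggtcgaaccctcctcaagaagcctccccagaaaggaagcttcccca
Insig1: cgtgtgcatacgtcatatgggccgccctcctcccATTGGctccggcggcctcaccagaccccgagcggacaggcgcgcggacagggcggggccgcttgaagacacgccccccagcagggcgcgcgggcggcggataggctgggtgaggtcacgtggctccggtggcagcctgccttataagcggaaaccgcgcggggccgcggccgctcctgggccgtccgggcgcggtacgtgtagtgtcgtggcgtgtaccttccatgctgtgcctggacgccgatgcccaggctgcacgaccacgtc
Mvk: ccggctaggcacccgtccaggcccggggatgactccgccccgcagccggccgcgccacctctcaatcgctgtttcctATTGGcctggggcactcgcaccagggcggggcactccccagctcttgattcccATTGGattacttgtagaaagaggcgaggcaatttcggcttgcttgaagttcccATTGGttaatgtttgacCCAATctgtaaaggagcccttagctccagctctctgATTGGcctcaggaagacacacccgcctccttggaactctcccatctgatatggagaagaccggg
Hmgcs1: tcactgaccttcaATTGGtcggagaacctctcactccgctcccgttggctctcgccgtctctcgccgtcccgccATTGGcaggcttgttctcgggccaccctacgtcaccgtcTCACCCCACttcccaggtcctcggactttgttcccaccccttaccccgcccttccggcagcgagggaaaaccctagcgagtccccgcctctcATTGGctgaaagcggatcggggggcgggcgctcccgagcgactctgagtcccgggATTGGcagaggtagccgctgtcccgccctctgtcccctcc
Insig2 upstream start: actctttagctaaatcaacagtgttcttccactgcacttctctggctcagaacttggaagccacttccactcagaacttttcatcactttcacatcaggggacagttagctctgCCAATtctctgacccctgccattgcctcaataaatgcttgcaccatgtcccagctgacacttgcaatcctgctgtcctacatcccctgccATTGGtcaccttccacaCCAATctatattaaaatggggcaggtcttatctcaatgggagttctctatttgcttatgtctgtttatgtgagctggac
Insig2 middle start: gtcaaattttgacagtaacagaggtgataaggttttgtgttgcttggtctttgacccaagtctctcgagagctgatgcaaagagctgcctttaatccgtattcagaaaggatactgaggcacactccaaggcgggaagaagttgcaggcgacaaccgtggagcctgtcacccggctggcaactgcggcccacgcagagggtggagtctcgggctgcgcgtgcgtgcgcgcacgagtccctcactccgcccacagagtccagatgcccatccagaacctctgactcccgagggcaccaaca
Insig2 downstream start: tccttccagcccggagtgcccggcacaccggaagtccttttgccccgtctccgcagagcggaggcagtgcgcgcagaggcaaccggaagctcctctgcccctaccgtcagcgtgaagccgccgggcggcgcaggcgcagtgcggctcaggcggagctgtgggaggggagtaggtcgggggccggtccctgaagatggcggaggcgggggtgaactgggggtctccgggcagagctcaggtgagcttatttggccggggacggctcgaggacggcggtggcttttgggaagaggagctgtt

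Searched on both strands, CCAAT was in at least 1 window of 14 of the 15 synthesis enzyme genes with a window (93.3%), against 42.5% of the 9326 genes past the filter that had one and 41.1% of all 27025 genes. The Sp1 box GGGCGG was likewise in 14 of 15 (93.3%), against 65.8% of genes past the filter. TCACNCCAC was in 1 of 15 (Hmgcs1), against 1.47% of genes past the filter. Mvk had 5 CCAAT boxes, Msmo1 3, Idi1 2 and Insig1 1. Of the Insig2 windows, the upstream one had 3 and the others 0. Among the 6 efflux and LXR genes, CCAAT was in 3 and GGGCGG in 2, and the LXR element, a direct repeat of the DR4 type, was in 0 of them and in 4 of all 27025 genes. These are matches of letters in short windows and show no binding.

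The effect of the second treatment was read from P+E against P+P, where the animals had PBS as first treatment, and from E+E against E+P, where they had met ethylbenzene before. These ratios share no array, and where 2 log2 ratios or folds stand together for a gene, P+E against P+P is the first. In each, the regulators of the pathway split sharply: Insig2 was far higher after ethylbenzene, while Insig1 and most synthesis enzymes were lower. The sterol carrier gene Stard4 and the bile exporters Abcg5 and Abcg8 were lower too, whereas Abca1 was higher. In P+E against P+P, 1 of the 28 genes was at least 2-fold lower (6.7% of all genes) and 2 were at least 2-fold higher (6.53%). In E+E against E+P, 8 were at least 2-fold lower (6.75% of all genes) and 3 higher (6.91%).

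**Figure D1:**
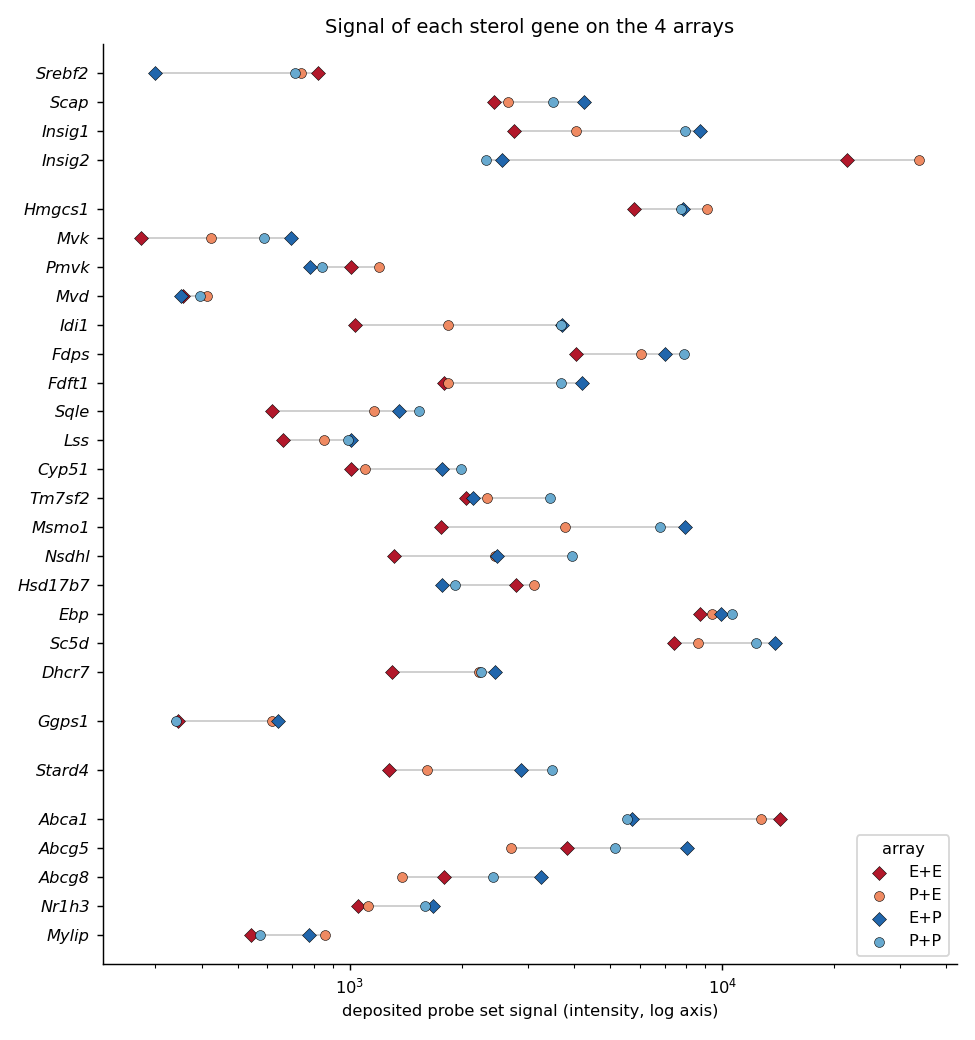
Deposited probe set signal (log axis) of each of the 28 measured sterol genes on the E+E, P+E, E+P and P+P arrays, 1 point per array and 1 row per gene, grouped by role from regulators to efflux genes. Insig2 and Abca1 lie to the right on both arrays after a second ethylbenzene dose, and Insig1, Idi1, Msmo1 and Stard4 lie to the left.

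Among the regulators, Insig2 had a signal of 33685 on P+E against 2312.5 on P+P, and 21691 on E+E against 2563.6 on E+P. Both arrays after a second ethylbenzene dose lay far above both arrays after PBS, 15.5-fold and 8.35-fold higher. The other probe sets of Insig2 gave log2 ratios of 4.30 and 3.65 for P+E against P+P and of 2.93 and 2.59 for E+E against E+P, beside 3.96 and 3.06 for the one used. Which of the 3 annotated starts was in use cannot be read from these probe sets. Insig1, which has 1 probe set, had 4047 on P+E against 7951.5 on P+P, and 2762 on E+E against 8739 on E+P. It was 1.90-fold and 3.05-fold lower, so the Insig genes differed in opposite directions. Scap had 2653 on P+E against 3506 on P+P, and 2439.8 on E+E against 4262 on E+P, with log2 ratios of -0.35 and -0.78, short of 2-fold. Srebf2 gave no single picture. Its stronger probe set had 739 on P+E against 713 on P+P, and 819 on E+E against 299 on E+P, so that the low E+P array set the log2 ratio of 1.32 in E+E against E+P, beside 0.07 in P+E against P+P. A second Srebf2 probe set, at lower signals, was at 1.14 in P+E against P+P and -0.16 in E+E against E+P.

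**Figure D2:**
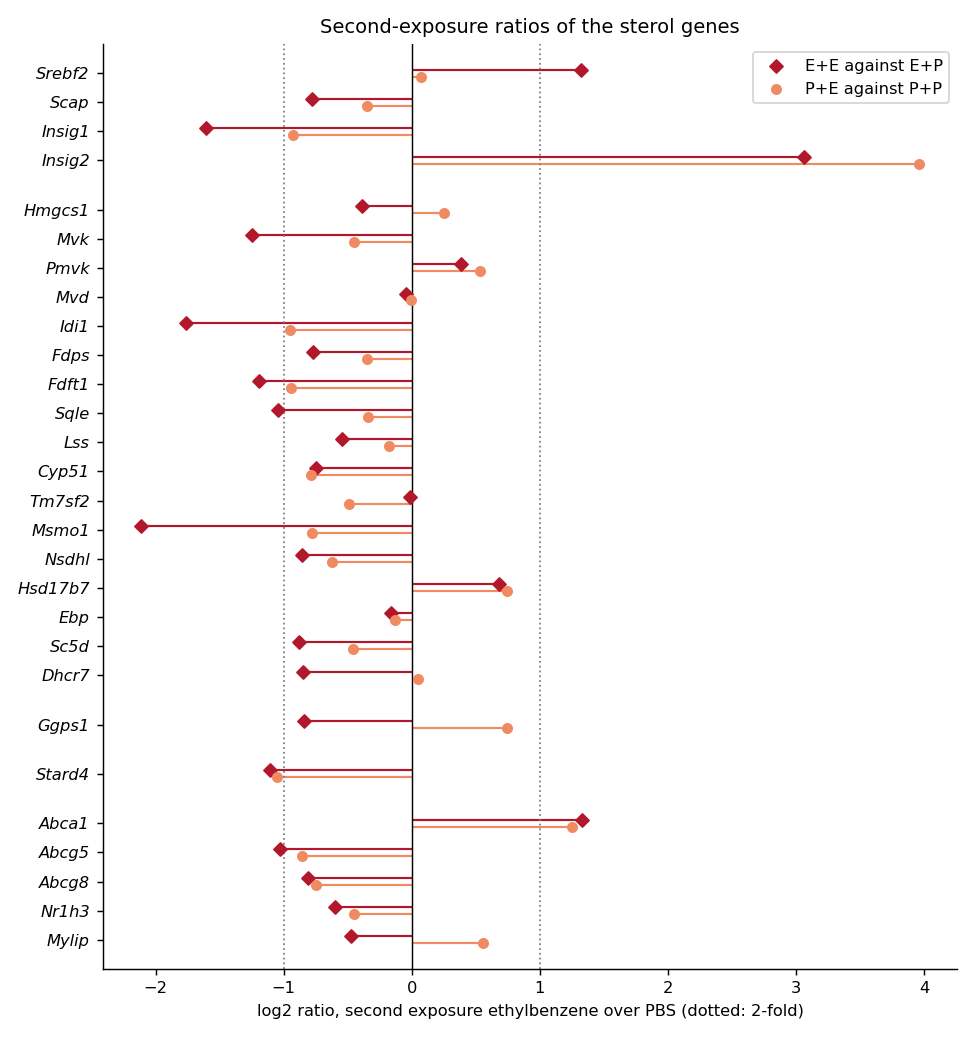
Log2 ratio of each sterol gene for E+E against E+P (diamonds) and P+E against P+P (circles), with dotted lines at 2-fold. Insig2 stands at 3.06 and 3.96, Abca1 at 1.33 and 1.25, and most synthesis enzymes lie left of 0, farther left in E+E against E+P.

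Of the 17 synthesis enzymes, 13 were below 0 in P+E against P+P (55.5% of all genes) and 15 in E+E against E+P (54.2%). Their median log2 ratios were -0.35 and -0.77, beside -0.07 and -0.05 over all genes past the filter. At least 2-fold lower were 0 enzymes in P+E against P+P (6.7% of all genes) and 5 in E+E against E+P (6.75%). With a rule of 1.5-fold, added after the values were seen, 5 enzymes were lower in P+E against P+P (17.1% of all genes) and 10 in E+E against E+P (16.7%). On the probe sets used, both ratios passed 1.5-fold downward (6.58% of all genes) for 5 enzymes, Idi1, Fdft1, Cyp51, Msmo1 and Nsdhl.

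The route was not uniform from start to end. Hmgcs1, which makes the precursor of mevalonate, had 9096.5 on P+E against 7762 on P+P, and 5795 on E+E against 7828 on E+P. It was thus a little higher in mice given PBS first (0.26) and a little lower in mice given ethylbenzene first (-0.39), both short of 2-fold. Mvk, the mevalonate kinase gene, had 424 on P+E against 586.5 on P+P, and 275 on E+E against 694 on E+P. Its log2 ratios were -0.45 and -1.25, and its second probe set gave -0.73 and -1.50. The next kinase gene, Pmvk, was at 0.54 and 0.39, and Mvd, the mevalonate diphosphate decarboxylase gene, at -0.01 and -0.04. A second probe set of Mvd gave -0.43 and -2.46, the last with an E+E signal of 39.4, below the filter level.

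From isopentenyl diphosphate to squalene the enzymes were lower in both ratios. Idi1, the isomerase that supplies the building block of farnesyl diphosphate, had 1831 on P+E against 3698.5 on P+P, and 1028 on E+E against 3712.5 on E+P. The PBS arrays nearly coincided, and Idi1 was 1.93-fold and 3.40-fold lower, with -0.96 and -1.66 on its second probe set. Fdps, the farnesyl diphosphate synthase gene, was at -0.35 and -0.77. Fdft1, the squalene synthase gene, had 1829 on P+E against 3688 on P+P, and 1783 on E+E against 4198 on E+P. It was 1.92-fold and 2.28-fold lower, and its other probe set above the filter level gave -0.75 and -1.27.

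In the steps from squalene to cholesterol, Sqle, the squalene epoxidase gene, had 1160 on P+E against 1527 on P+P, and 618 on E+E against 1355 on E+P. Its ratio passed 2-fold in mice given ethylbenzene first (-1.04, beside -0.34). Lss, the lanosterol synthase gene, was at -0.18 and -0.54. A weaker Lss probe set gave -2.57 and -1.28, the first with a P+E signal of 26, below the filter level. Cyp51, which removes a methyl group from lanosterol, had 1094 on P+E against 1987 on P+P, and 1004 on E+E against 1767 on E+P. On this probe set it was lower by a similar factor in both comparisons (1.73-fold and 1.68-fold). Its other probe set above the filter level gave -0.49 and -0.69, and one below that level gave 0.23 and -1.98. Msmo1, the methylsterol monooxygenase gene, had 3770.4 on P+E against 6821 on P+P, and 1753 on E+E against 7932 on E+P. At 1.72-fold and 4.32-fold lower, it had the lowest ratio of the set in E+E against E+P. Nsdhl, which works with Msmo1 in removing methyl groups, was at -0.62 and -0.85. Sc5d, the sterol desaturase gene, was at -0.45 and -0.88 on the probe set used and at -1.50 and -1.77 on a second, weaker one. The weakest Sc5d probe set gave -1.06 and -0.51, with the larger difference in P+E against P+P. Dhcr7, a reductase of the last stage, had 2227 on P+E against 2250.3 on P+P, and 1298 on E+E against 2447.5 on E+P, with log2 ratios of 0.05 and -0.85. Ebp, the sterol isomerase gene, was at -0.13 and -0.16, and Tm7sf2, a sterol reductase gene, at -0.49 and -0.01. Hsd17b7, a ketosteroid reductase gene, stood the other way at 0.74 and 0.68, but 2 further probe sets above the filter level gave 0.24 and 0.07, and -0.12 and -0.22.

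Outside the main route, Ggps1, which makes geranylgeranyl diphosphate, had 616.5 on P+E against 339.8 on P+P, and 344 on E+E against 642 on E+P, with log2 ratios of opposite sign (0.75 and -0.84). Its 3 other probe sets lay between -0.29 and 0.42 in P+E against P+P and between -0.03 and 0.26 in E+E against E+P. Stard4, a cytosolic carrier that moves cholesterol between membranes and is a known SREBP-2 target, had 1607 on P+E against 3486 on P+P, and 1274 on E+E against 2878.5 on E+P. It alone of the set passed 2-fold downward in both ratios (1.86% of all genes), by 2.07-fold and 2.15-fold. Its other probe sets gave -0.97 and -1.22 in P+E against P+P and -1.61 and -2.08 in E+E against E+P.

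Set beside synthesis, the export genes did not move as one. Abca1, which loads cholesterol onto apolipoprotein A-I to form nascent HDL, had 12720 on P+E against 5534 on P+P, and 14301 on E+E against 5714 on E+P. It was 2.38-fold and 2.52-fold higher, and its other probe sets gave 1.76 and 1.99 in P+E against P+P and 1.42 and 1.55 in E+E against E+P. Insig2 and Abca1 were the 2 genes of the set that passed 2-fold upward in both ratios (2.87% of all genes). Abcg5 and Abcg8 together encode the transporter that secretes sterols into bile. Abcg5 had 2707 on P+E against 5142 on P+P, and 3837 on E+E against 8050 on E+P. Abcg8 had 1375.5 on P+E against 2419 on P+P, and 1793 on E+E against 3264 on E+P. Both genes were lower after a second dose of ethylbenzene than after a second dose of PBS. The log2 ratios were -0.86 and -1.03 for Abcg5 and -0.75 and -0.81 for Abcg8.

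Nr1h3, which encodes LXR-alpha, the receptor that drives Abca1, Abcg5 and Abcg8 in liver, had 1115 on P+E against 1587 on P+P, and 1052 on E+E against 1669 on E+P. Its log2 ratios of -0.45 and -0.60 were short of 2-fold. Mylip encodes a ubiquitin ligase that lowers lipoprotein uptake by marking receptors for breakdown. It had 854 on P+E against 575 on P+P, and 541.5 on E+E against 774 on E+P, with log2 ratios of opposite sign (0.55 and -0.47). The 5 efflux and LXR genes had median log2 ratios of -0.45 and -0.60, beside -0.35 and -0.77 for the synthesis enzymes. These efflux and LXR medians were the values of Nr1h3, a receptor gene. The exporters differed in sign, with Abca1 higher and Abcg5 and Abcg8 lower.

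**Figure D3:**
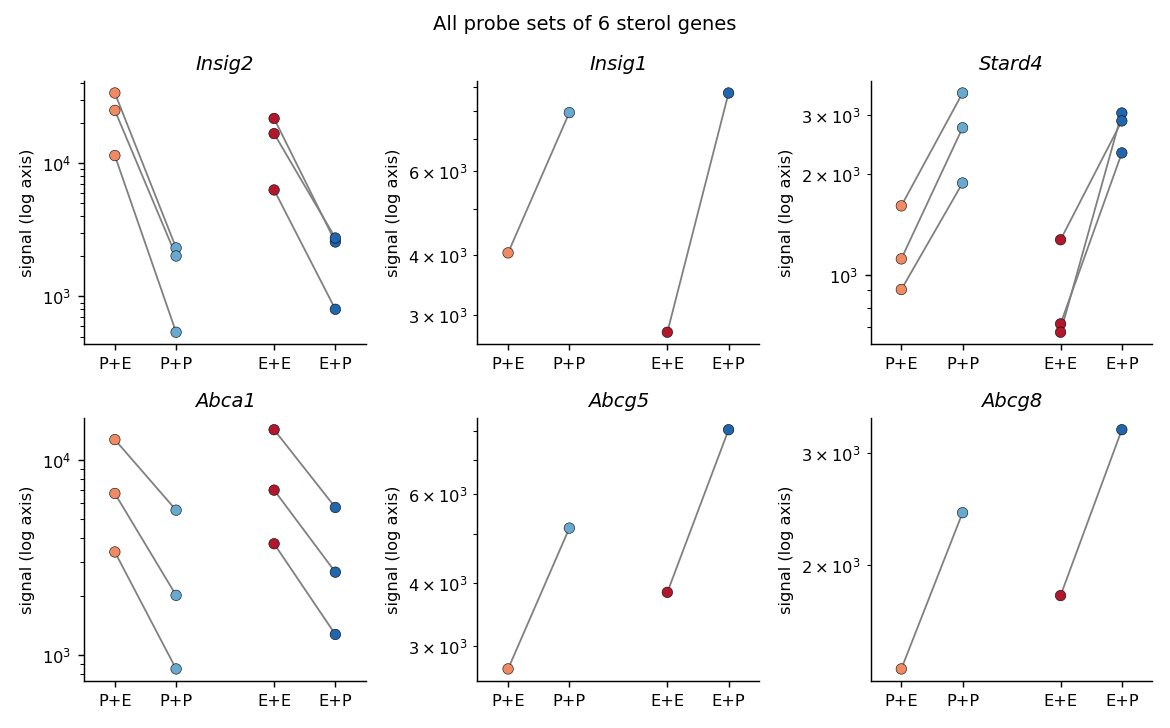
Deposited signal (log axis) of every probe set of Insig2, Insig1, Stard4, Abca1, Abcg5 and Abcg8, with lines joining P+E to P+P and E+E to E+P on the same probe set. All 3 probe sets each of Insig2 and Abca1 were higher after a second ethylbenzene dose. All 3 of Stard4 were lower, as were the single probe sets of Insig1, Abcg5 and Abcg8.

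Over the set, 32 further probe sets were annotated to the 28 genes. Of the 23 among them at or above the filter level, 21 had the sign of the one used in P+E against P+P and 19 in E+E against E+P. In the comparisons of the first treatment, taken up below, 13 of the 23 had it in E+P against P+P and 18 in E+E against P+E. Scaling mattered for the 2-fold count of P+E against P+P: with the arrays set to a common 75th percentile, 4 genes were lower and 2 higher, since Insig1, Idi1 and Fdft1 then passed 2-fold (-1.03, -1.06 and -1.06). The median of all genes was -0.11 there.

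Of 25 other sterol and lipid genes, 22 past the filter, 4 were called lower by 2-fold in both ratios (1.86% of all genes) and 0 were called higher in either (6.53% and 6.91%). This list was also chosen with earlier results of these data known, so its counts are not independent of them. The genes with the largest mean ratios were all lower. Aacs, which activates acetoacetate for lipid synthesis, had 244 on P+E against 2997 on P+P, and 338 on E+E against 1468 on E+P (log2 ratios of -3.44 and -2.01). Stard5, a sterol-binding relative of Stard4, had 1563 on P+E against 4762 on P+P, and 871 on E+E against 5110.2 on E+P (-1.52 and -2.47). Srebf1, whose product drives fatty acid synthesis, was at -1.15 and -1.58, and Elovl6, a fatty acid elongase gene, at -1.55 and -1.08.

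Markers of other cells also differed between these arrays. Of the pancreatic acinar genes, 6 of 7 measured markers were called higher in both ratios (2.87% of all genes). Their summed signal was 6997 on P+E against 2916 on P+P, and 7161 on E+E against 2559 on E+P, and 4 of the 7 lay below the filter level on each PBS array. The 5 measured neutrophil markers summed to 3768 on P+E against 927 on P+P, and 6148 on E+E against 474 on E+P, and 2 of them, S100a8 and S100a9, were called higher in both. The other 3 were lower in P+E against P+P, with Ngp at -0.89, Camp at -1.51 and Ltf, which did not pass the filter, at -1.10. The 10 markers of Kupffer cells, the liver macrophages, summed to 15772 on P+E against 18664 on P+P, and 18197 on E+E against 27990 on E+P. In P+E against P+P, 6 of them were below 0 and 4 above (55.5% of all genes were below). In E+E against E+P, 10 were below 0 (54.2% of all genes). None was at least 2-fold apart in the same direction in both ratios. The summed signals of 6 endothelial markers (between 6857 and 7942), 6 stellate markers (between 14424 and 17647) and 4 cholangiocyte markers (between 776 and 1291) each varied less than 2-fold, although Lyve1 of the endothelial and Sox9 of the cholangiocyte list were called higher in both ratios. The stellate sum was mostly Dcn (11401 on P+E). In P+E against P+P, 5 of the 6 stellate markers were below 0 (55.5% of all genes), with a median of -0.53 and Col1a1 at -1.12. The part of these cells in the sterol gene ratios was not tested.

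The trace left by the first treatment was read from E+P against P+P, without a new ethylbenzene dose, and from E+E against P+E, with one. These ratios share no array with each other, but each shares its arrays with the second-exposure ratios above. At 7 days after ethylbenzene alone, the synthesis enzymes were split about 0, with Nsdhl and Tm7sf2 lowest, while after re-exposure every one of the 17 measured enzymes was below 0 in the ratio of E+E to P+E. In E+P against P+P, 9 of 17 enzymes were below 0 (51.9% of all genes), with a median log2 ratio of -0.08 and a range of -0.66 to 0.23. In E+E against P+E, 17 of 17 were below 0 (50.1% of all genes), with a median of -0.35 and a range of -1.10 to -0.04, beside a median of 0.00 over all genes. Enzymes of 1 pathway and signals of 1 array are not independent observations, and the count was 14 of 17 when all probe sets of a gene were averaged. Markers of other cells also differed in E+E against P+E, where 5725 of all 11513 genes were above 0. Above 0 were 6 of 6 stellate markers (median 0.51), 4 of 4 neutrophil markers past the filter (median 0.81) and 9 of 10 Kupffer cell markers (median 0.19). The part of these cells was not tested. The 3′/5′ ratio of the Pcx control was 12.0 on E+E against 6.15 on P+E. Those of Actb (3.77 and 3.48) and Gapdh (0.97 and 0.94) lay close together on these arrays.

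**Figure D4:**
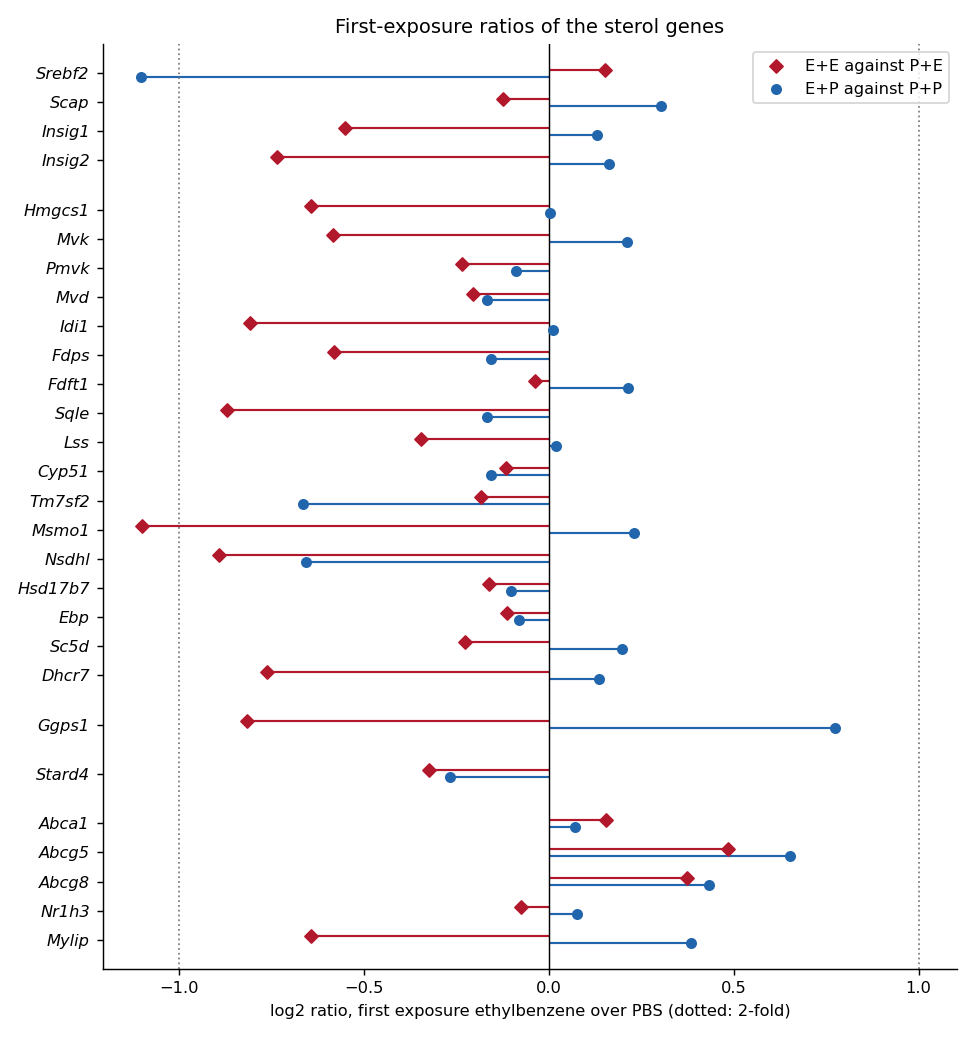
Log2 ratio of each sterol gene for E+E against P+E (diamonds) and E+P against P+P (circles), with dotted lines at 2-fold. Diamonds of all 17 synthesis enzymes lie left of 0, with Msmo1 lowest at -1.10, while the circles lie on either side.

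In E+E against P+E, Msmo1 was the 1 gene called lower at 2-fold (3.99% of all genes), with a log2 ratio of -1.10, and 0 genes were at least 2-fold higher (3.98%). At least 1.5-fold lower were 9 of the 28 genes (10.5% of all genes), among them 6 enzymes. Nsdhl was at -0.89, Sqle at -0.87, Idi1 at -0.81, Dhcr7 at -0.76 and Hmgcs1 at -0.64. All 4 further Hmgcs1 probe sets were measured: 3 of them, above the filter level, gave -1.18, -0.61 and -0.54, and the dim one gave 0.72. The 3 other genes were Insig2 (-0.73), Ggps1 (-0.81) and Mylip (-0.64), whereas Insig1 was at -0.55. The other Ggps1 probe sets gave -0.05, 0.53 and -0.34, short of that rule.

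In E+P against P+P, Srebf2 was the 1 gene at least 2-fold lower (2.73% of all genes), at -1.10 on the probe set used and 0.72 on its other one, and 0 genes were at least 2-fold higher (2.58%). At least 1.5-fold lower were 3 of the 28 genes (8.77% of all genes), Srebf2, Nsdhl and Tm7sf2, the last 2 both at -0.66. Abcg5 and Abcg8 were higher in both first-exposure ratios, Abcg5 at 0.65 in E+P against P+P and 0.48 in E+E against P+E, and Abcg8 at 0.43 and 0.37. All 5 efflux and LXR genes were above 0 in E+P against P+P (48% of all genes), with a median of 0.38. Set side by side, the synthesis and efflux medians were -0.08 and 0.38 in E+P against P+P. The -0.08 lay near 0, ranged from -0.12 to 0.01 over the processing alternatives given below, and stood beside -0.01 over all genes. In E+E against P+E the medians had opposite signs, at -0.35 and 0.16, and 3 of the 5 efflux and LXR genes were above 0. Each efflux and LXR median was the value of 1 gene, Mylip at 0.38 and Abca1 at 0.16. Kupffer cell markers were also above 0 in E+P against P+P, for 9 of 10 with a median of 0.64, and their part in the efflux genes was not tested.

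The difference of the second-exposure ratios, E+E against E+P minus P+E against P+P, holds the error of all 4 arrays. It was below 0 for 15 of the 17 enzymes (49.7% of all genes), with a median of -0.37 beside 0.00 over all genes. Kupffer cell markers were below 0 in 9 of 10, with a median of -0.42, and their part was not tested. Among single genes, Msmo1 stood at -1.33, Dhcr7 at -0.90, Idi1 at -0.82, Mvk at -0.80, Sqle at -0.70 and Hmgcs1 at -0.65, and Tm7sf2 at 0.48. For Insig2 it was -0.90, a smaller excess in mice given ethylbenzene first. For Abca1 it was 0.08 on the probe set used, with nearly the same excess in both. The other Abca1 probe sets had a smaller excess in mice given ethylbenzene first. They gave 1.76 and 1.99 in P+E against P+P and 1.42 and 1.55 in E+E against E+P.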

How the data were processed

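RNA of 4 liver pools was measured on 1 Affymetrix array each. The deposited table holds 45101 intensities per array, as linear signals. The name of the summarising software was not given in the sources used here. Scaling by the authors was visible in the values, since the mean after trimming 2% of probe sets at each end was 500.004 on every array. Medians of the log2 signals still lay 0.24 apart, so signals were quantile-normalized and taken as log2(signal + 43.2), the 25th percentile of all signals.

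Groups came from the sample titles. Gene names came from the platform annotation, with symbols updated by Entrez identifier in a RefSeq table (GRCm38.p6): 34945 had 1 gene, 932 several, 9160 none listed and 64 were controls. No build was given for the array, so coordinates are printed for the RefSeq promoter windows alone. The filter kept genes whose mean log2 signal reached the median of all probe sets.

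No p-value was computed because each group had 1 array, and the number of arrays limits the precision. Ratios were described by a 2-fold rule. The members and lists were chosen with earlier results of these data known. All members are named, and of the other pathway genes the 4 with the largest mean second-exposure ratios. The steps were tested on simulated arrays. Alternatives covered scaling, pseudocount, filter and probe set choice. Python 3.11.15, numpy 2.4.6 and pandas 2.3.3 were used.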

Additional observations from a re-analysis of the deposited data

Results flagged for a closer look

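Some genes had ratios of opposite sign in the paired comparisons, at least 2-fold apart. None of these differences was tested, since each group had 1 array. For Ggps1 the difference was -1.59, both between the second-exposure ratios (-0.84 in E+E against E+P, 0.75 in P+E against P+P) and between the first-exposure ratios (-0.81 in E+E against P+E, 0.78 in E+P against P+P), which is the same quantity by construction. For Mylip it was -1.03 in the same way (-0.47 and 0.55, and -0.64 and 0.38). For Srebf2 the first-exposure ratios differed by 1.25 (0.15 in E+E against P+E, -1.10 in E+P against P+P), with another probe set at -0.58 and 0.72. For Msmo1 they differed by -1.33 (-1.10 and 0.23). The other Ggps1 probe sets did not show a difference of that size. They lay between -0.03 and 0.26 in E+E against E+P and between -0.29 and 0.42 in P+E against P+P.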

How the results depend on the processing

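No paired analysis was possible because each group had 1 array. Over 9 alternatives, the medians of the synthesis enzymes stayed between -0.45 and -0.34 in P+E against P+P, between -0.85 and -0.76 in E+E against E+P and between -0.46 and -0.32 in E+E against P+E, and that of E+P against P+P between -0.12 and 0.01. The median difference of the second-exposure ratios stayed between -0.40 and -0.23. Efflux and LXR medians stayed between -0.55 and -0.43, -0.68 and -0.58, 0.36 and 0.41 (E+P against P+P) and 0.11 and 0.17 (E+E against P+E).

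Counts of genes past 2-fold moved more. The 1 lower gene in P+E against P+P became 4 at a common 75th percentile, 3 with all probe sets averaged and 2 without probe sets of an s, x or a suffix. The 1 lower gene in E+P against P+P became 0 with a pseudocount of 100 and 0 with probe sets averaged. In E+E against P+E the 1 lower gene became 2 with probe sets averaged, and the 0 higher became 1 without suffixed probe sets. A 1.5-fold rule was added after the data were seen. In P+E against P+P it gave 9 lower and 4 higher, beside 1974 and 1603 of all 11513 genes. In E+E against E+P it gave 17 lower and 4 higher, beside 1918 and 1746 of all genes. In E+P against P+P it gave 3 lower and 2 higher, beside 1010 and 896. In E+E against P+E it gave 9 lower and 0 higher, beside 1205 and 1254. Causes were not tested. Enzymes below 0 in E+E against P+E numbered 14 of 17 with probe sets averaged, 15 of 16 without suffixed ones (Msmo1 dropped out) and 16 of 16 at a 75th percentile filter (Mvd dropped out). Of 1000 ratios of single genes, 944 stayed on their side of 2-fold and within 0.25, 56 moved and 0 ratios past 2-fold changed sign. The moves lay mainly in the probe set choice. With probe sets averaged 38 moved and 74 stayed, and without suffixed ones 13 moved and 95 stayed. Changes of the filter, low signals set to the filter level, a pseudocount of 1 and the deposited signals each moved 0, so the total says little about probe set choice.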
